A study of Mus musculus with 16 samples.

Results

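The genes described here are 38 members of the glycolytic pathway and of the hypoxia response. They were taken by symbol from a fixed list, chosen with earlier results of these data known. They stood on 39 lines of a results table of 54432 genes, because Aldoa has 2 gene IDs. Of these lines, 37 reached 10 normalized counts on average and were tested, 24 in glycolysis and 13 in the hypoxia response, among 17755 genes tested in all. The remaining lines were Car9, a carbonic anhydrase strongly induced by hypoxia in many cells, with a mean of 0.824 normalized counts, and the second Aldoa ID, with a mean of 4.13.

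The cells were C57LacZ mouse THY-1+ germ cells, a culture enriched for spermatogonial stem cells and grown on STO fibroblast feeders, kept between passages 9 and 12 with 1 ng/mL FGF2. For the experiment every group received GDNF at 20 ng/mL and GFRA1 at 150 ng/mL for a week before bulk RNA sequencing. The control had no FGF, high-dose FGF9 was 20 ng/mL, low-dose FGF9 was 1 ng/mL, and FGF2 was given at 1 ng/mL, the same as the low dose of FGF9. The labels list 16 samples in 4 groups, while the deposited table points to 12 libraries, so that 3 libraries per group were assumed. The table holds no value per library. Each group is therefore given by its derived mean, which follows from the overall mean of a gene and its 3 fold changes against control, and the error of each ratio is its 95% interval from the standard error of the log2 fold change. In the labels each culture number occurs once in every treatment, so the groups may be matched by culture. Neither what same-numbered cultures share nor whether the authors' model used the numbers is stated, and the contrasts between FGF groups rebuilt here use no pairing. All p-values cover only the spread between these libraries, which may be technical.

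Glycolysis splits glucose into pyruvate in a fixed series of enzyme steps and yields ATP without oxygen. Lactate dehydrogenase then converts pyruvate to lactate, which monocarboxylate transporters carry out of the cell. When oxygen is scarce, the hypoxia-inducible factors HIF-1α and HIF-2α escape hydroxylation by prolyl hydroxylases and bind short hypoxia response elements at many genes of this pathway, so glycolysis and the hypoxia response share much of their transcriptional control. Cultured spermatogonial stem cells are known to rely on glycolysis.

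With high-dose FGF9, 3 of the 37 tested members were lower than in control and none was higher (DESeq2 Wald p-values, Benjamini-Hochberg adjusted over all genes tested, called under 0.05). They were Ldhb, a lactate dehydrogenase subunit, Pkm, the pyruvate kinase of the last glycolytic step, and Ankrd37, an ankyrin repeat gene known as a HIF-1 target. The call of Pkm was lost under 1 of 5 alternatives. Among all genes tested 2.75% were called, 0.986% as lower and 1.76% as higher. With low-dose FGF9 and with FGF2 no member was called.

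The promoters of Ldhb and Ankrd37 are shown because both genes were called lower with high-dose FGF9. They were searched for the core of the hypoxia response element, ACGTG or GCGTG on either strand. The sequences are from RefSeq, on build GRCm38.p6, and run 5′ to 3′ towards the annotated start, with matches to a core in capitals. The Ldhb stretch is chr6:142507958-142508207 on the minus strand and ends at the base before the start. The Ankrd37 stretch is chr8:45999868-46000100 on the minus strand, and the bases closest to its start were left out because another transcript model annotates them as untranslated. It precedes the RefSeq start but lies inside the wider span that GENCODE annotates for Ankrd37, chr8:45996902-46005707.
Ldhb: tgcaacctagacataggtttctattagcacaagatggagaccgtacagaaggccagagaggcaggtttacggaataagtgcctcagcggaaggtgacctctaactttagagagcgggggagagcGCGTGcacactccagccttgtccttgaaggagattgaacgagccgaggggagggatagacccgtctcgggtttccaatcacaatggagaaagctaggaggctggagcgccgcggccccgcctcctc
Ankrd37: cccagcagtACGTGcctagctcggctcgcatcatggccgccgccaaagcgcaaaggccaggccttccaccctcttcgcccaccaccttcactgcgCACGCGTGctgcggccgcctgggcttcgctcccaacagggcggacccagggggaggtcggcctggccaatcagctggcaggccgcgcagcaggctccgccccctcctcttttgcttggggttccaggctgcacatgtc

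The Ldhb window held 1 core, GCGTG, whose first base lies at position -126 from the start. GCGTG was found in 32.4% of all promoter windows. The Ankrd37 window of 300 bases held 4 cores, of which 3 fall in the printed stretch. The core at -241 is ACGTG, and the 8 capitals further on hold GCGTG once on each strand, at -155 and -152, so that these matches overlap. The core not printed is ACGTG at -6.

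Pkm had 2 windows, for its 2 annotated starts. One held no core and the other held ACGTG on the opposite strand at -75 and at 8. In these windows the first base annotated as untranslated came after 42 and 110 bases. These stretches were too short to show, so no Pkm sequence is printed.

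Of the 38 members, 34 had at least 1 promoter window reaching from 250 bases before to 50 after the start, with 49 windows in all. At least 1 core of either kind was found for 31 of the 34 members (91.2%), against 46.7% of 27025 genes with a window. By window the shares were 39 of 49 (79.6%) for members and 43.8% for all 32851 windows. The core ACGTG alone was found for 24 of 34 members (70.6%) and for 21.8% of all genes. The members without a core were Gpi1, Eno2 and Tpi1, and the largest number in 1 window was 7, for Ldha. Many members are known HIF targets and were listed for that reason. The windows of members also had a higher content of G and C, with a median of 63.3% against 52.7% for all windows, and the part of base composition in the difference was not tested. These matches are a description of the sequences, and they do not separate the members that fell from those that did not pass the test.

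**Figure D1:**
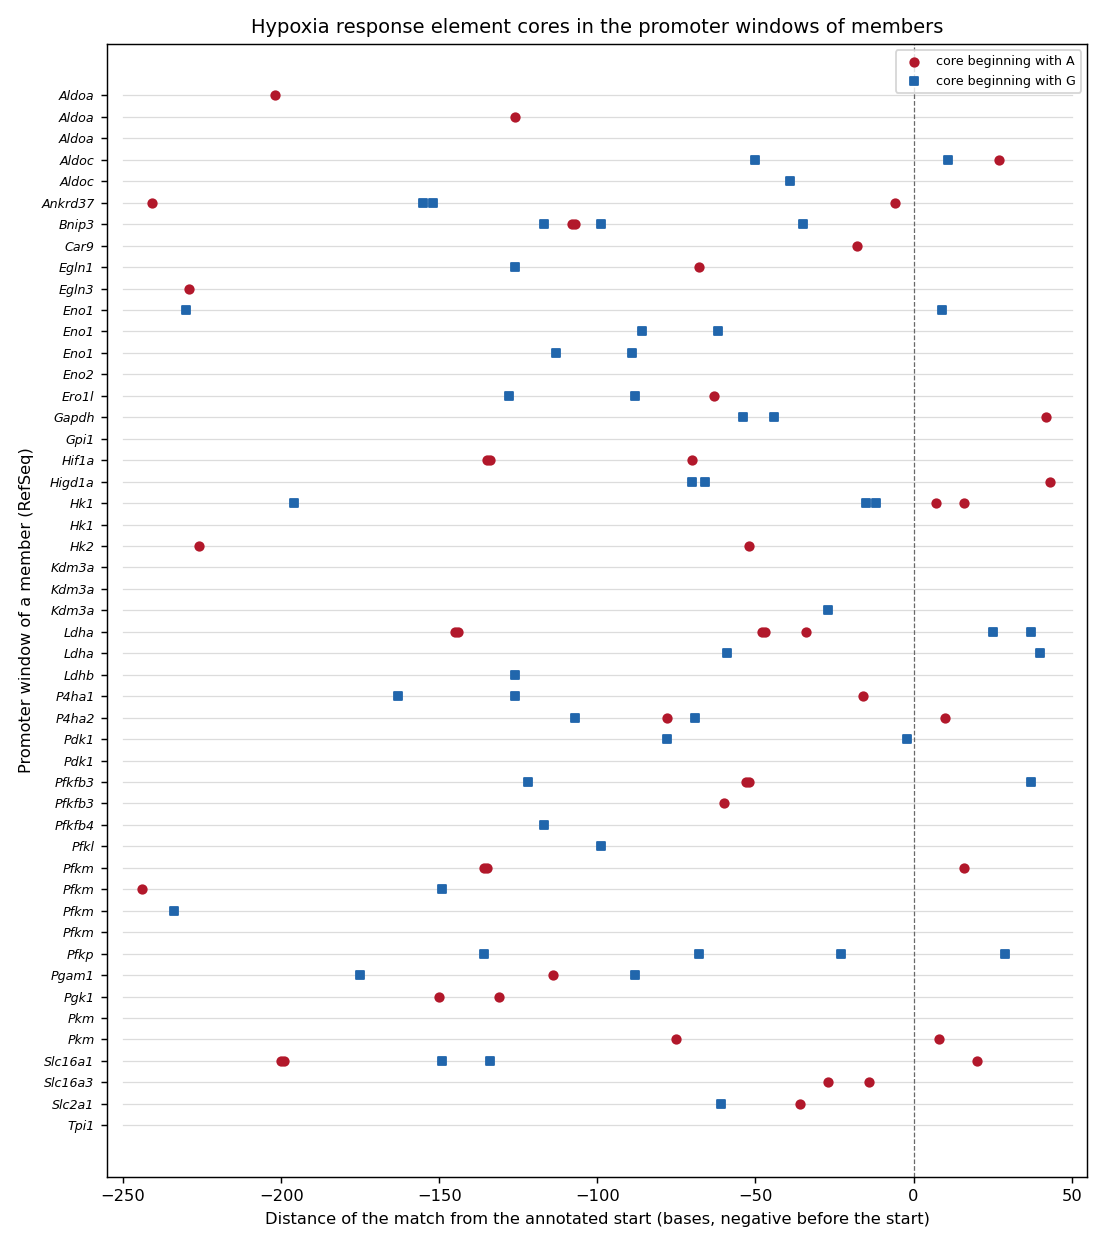
Positions of hypoxia response element cores in the 49 promoter windows of 34 members, with distance from the annotated start in bases on the horizontal axis and 1 line per window. Ldhb has 1 core, Ankrd37 has 4, and the windows of Gpi1, Eno2 and Tpi1 have none.

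Among the lactate dehydrogenases, Ldhb was the member with the smallest p-value. LDHB is the heart-type subunit, which favours the conversion of lactate to pyruvate, whereas LDHA, the muscle-type subunit, favours lactate formation. The Ldhb gene (ENSMUSG00000030246) lies on GRCm38 chr6:142490249-142507957, minus strand. Its derived mean was 797 normalized counts in control, 746 with FGF2, 723 with low-dose FGF9 and 546 with high-dose FGF9. The 3 lower-dose or untreated groups thus lay close together and the high-dose FGF9 group lay below them. The ratio of high-dose FGF9 to control was 0.685 (95% interval 0.605 to 0.776, adjusted p = 1.23e-06), a fall by 31.5%. With low-dose FGF9 the ratio was 0.908 (0.800 to 1.03), and with FGF2 it was 0.937 (0.828 to 1.06).

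Ldha had a derived mean of 3555 normalized counts in control and of 2884 to 3072 in the FGF groups. Its ratio was 0.856 (0.718 to 1.02, adjusted p = 0.522) with high-dose FGF9 and 0.864 (0.725 to 1.03) with low-dose FGF9. With FGF2 it was 0.811 (0.681 to 0.967), with an unadjusted p of 0.0197 and an adjusted p of 0.716. The FGF groups of Ldha thus lay together, unlike those of Ldhb. Per kilobase of exon, the control level of Ldha was 1876 and that of Ldhb 611 normalized counts.

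Pkm was the most abundant member on both scales, with 9717 normalized counts per kilobase of exon in control. The gene (ENSMUSG00000032294) lies on chr9:59656368-59679375, plus strand, and its M1 and M2 isoforms cannot be told apart in a count per gene. Its derived mean was 25256 normalized counts in control, 24865 with low-dose FGF9, 23762 with FGF2 and 22228 with high-dose FGF9. The ratio of high-dose FGF9 to control was 0.880 (0.819 to 0.946, adjusted p = 0.0236). The fall was 12.0%, with a standard error of 0.053 on the log2 scale, and the call was lost when the null was estimated from the quartiles of the Wald statistics (adjusted p = 0.0954, range over 5 alternatives 0.0204 to 0.0954). With low-dose FGF9 the Pkm ratio was 0.985 (0.916 to 1.06) and with FGF2 it was 0.941 (0.876 to 1.01). The annotated gene Gm49759 shares 767 exon bases with Pkm on the same strand. Its own ratio was not called (log2 -0.09, adjusted p = 0.800), and how reads of the shared bases were assigned is not stated.

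Ankrd37 (ENSMUSG00000050914) lies on chr8:45996902-46005707, minus strand. Its derived mean was 245 normalized counts in control, 233 with low-dose FGF9, 195 with FGF2 and 137 with high-dose FGF9. The ratio of high-dose FGF9 to control was 0.558 (0.422 to 0.738, adjusted p = 0.00394), the lowest ratio of any tested member in that comparison. With low-dose FGF9 it was 0.952 (0.721 to 1.26), and with FGF2 it was 0.796 (0.605 to 1.05). A limit applies to this gene: Ankrd37 shares 349 exon bases with Lrp2bp on the opposite strand, and Lrp2bp was also lower with high-dose FGF9 (mean 74.2 normalized counts, log2 -0.96, adjusted p = 0.0455). The library kit marks strand, but the strand setting of the counting is not stated. Whether reads of one gene were counted for the other was not tested.

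**Figure D2:**
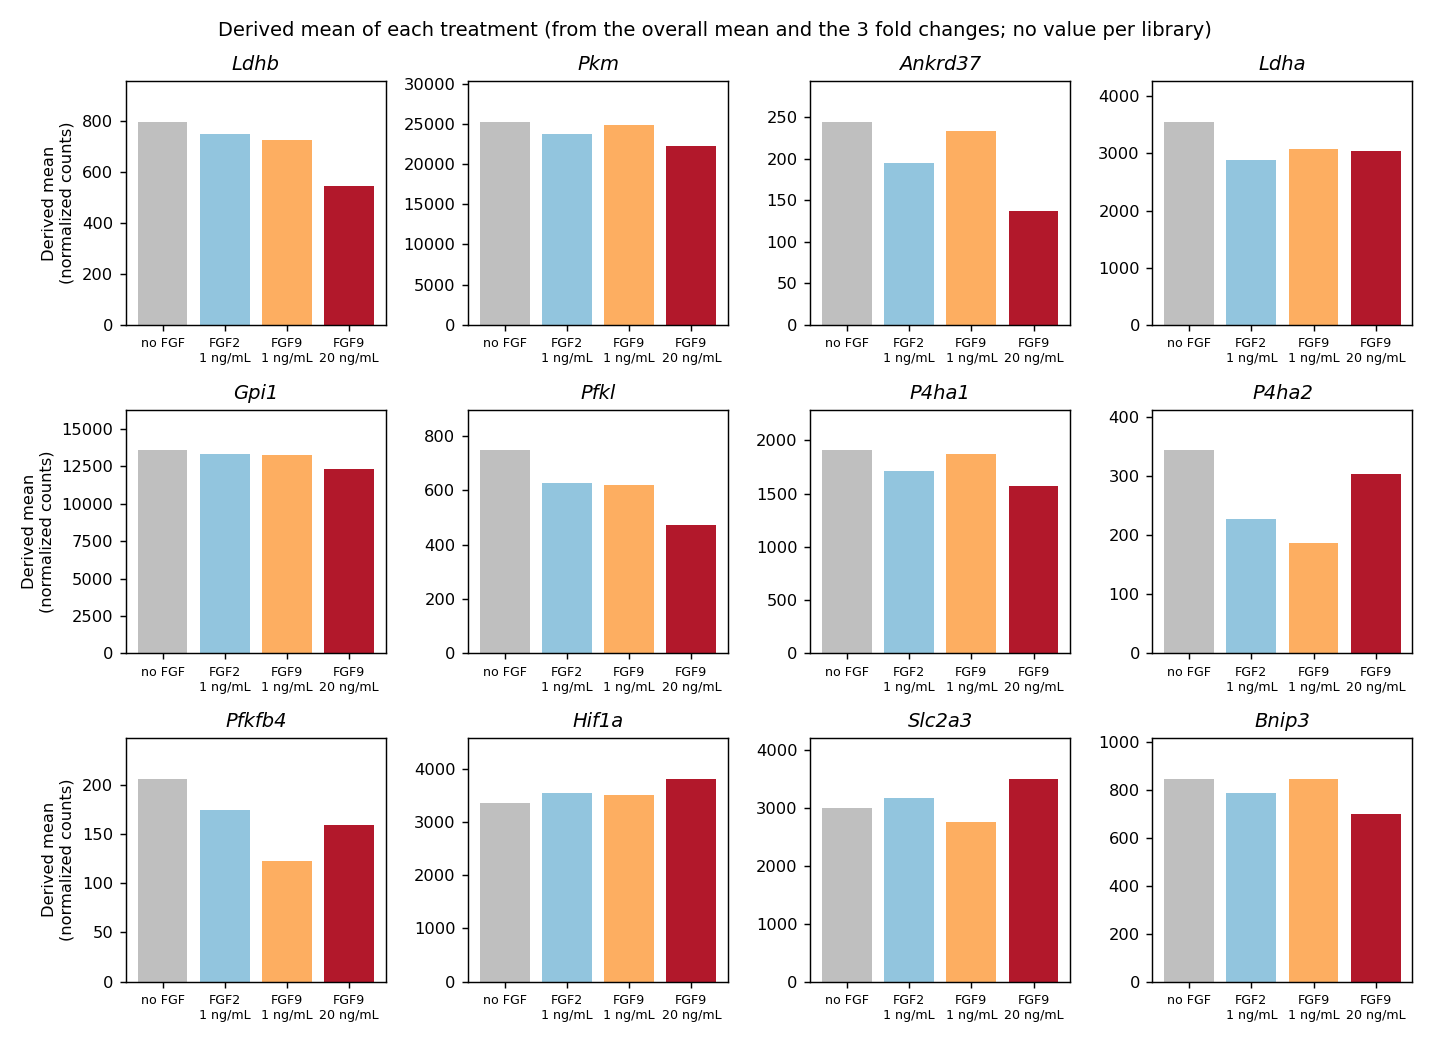
Derived mean of each treatment group in normalized counts for 12 members, with bars starting at 0 and without error bars because no value per library is held. Ldhb and Ankrd37 stand lowest with high-dose FGF9, at 546 and 137, whereas the Ldha levels of the 3 FGF groups lie between 2884 and 3072 and P4ha2 stands lowest with low-dose FGF9, at 186.

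The enzymes from hexokinase to aldolase had no called member. Of the hexokinases, which trap glucose in the cell as glucose 6-phosphate, Hk1 had a ratio of 0.984 (0.879 to 1.10) with high-dose FGF9 and Hk2 a ratio of 0.897 (0.785 to 1.03). Gpi1, the glucose phosphate isomerase, had a derived mean of 13589 normalized counts in control and 12354 with high-dose FGF9. Its ratio of 0.909 (0.855 to 0.966) missed the threshold with an adjusted p of 0.0685, and it was 0.976 with low-dose FGF9 and 0.982 with FGF2.

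Phosphofructokinase commits the sugar to glycolysis and has liver, muscle and platelet subunits. Pfkl, the liver subunit, had a derived mean of 749 normalized counts in control and 471 with high-dose FGF9. That ratio of 0.629 (0.456 to 0.867) was not called (unadjusted p = 0.00458, adjusted p = 0.110). Pfkp, the platelet subunit, had a ratio of 0.722 (0.517 to 1.01), and Pfkm, the muscle subunit, one of 1.08 (0.867 to 1.36). The point estimates of the 3 subunits thus did not all lie on the same side of 1, and all 3 intervals were wide. Pfkp shares 748 exon bases with Pitrm1 on the opposite strand, a gene with a mean of 3221 normalized counts. Aldoa and Aldoc, which cleave fructose 1,6-bisphosphate, had ratios of 0.921 (0.806 to 1.05) and 1.02 (0.896 to 1.15).

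In lower glycolysis, 6 of the 7 members had ratios below 1 with high-dose FGF9 and 1 of them, Pkm, was called. The ratios of Tpi1, Gapdh, Pgk1 and Pgam1, the enzymes from triose phosphate isomerase to phosphoglycerate mutase, lay between 0.893 and 0.919, and each interval reached past 1. Gapdh, often taken as a reference gene, had derived means of 8503 normalized counts in control and 7813 with high-dose FGF9, with an interval of the ratio of 0.821 to 1.03. Pgk1 stood at 998 normalized counts in control and at its lowest level, 816, with FGF2, where the ratio was 0.818 (0.676 to 0.990, unadjusted p = 0.0393, adjusted p = 0.912).

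The enolases catalyse the step before pyruvate kinase. Eno1, the widespread enolase, had a ratio of 0.845 with high-dose FGF9 (0.720 to 0.992, unadjusted p = 0.0391, adjusted p = 0.372). Its reads are uncertain, since the retrotransposed copy Eno1b is near-identical in sequence, was at 1996 normalized counts per kilobase of exon in control against 1058 for Eno1, and had a ratio of 0.833. Eno2, the neuronal enolase, went the other way in its point estimates, with derived means of 190 normalized counts in control and 221 to 254 in the FGF groups, and none of its ratios passed the test.

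Members that carry glucose and lactate had no call. Slc2a3, which encodes the glucose transporter GLUT3, was at 2994 normalized counts in control and 3503 with high-dose FGF9, a ratio of 1.17 (0.949 to 1.44). Slc2a1, which encodes GLUT1, had a ratio of 0.869 (0.740 to 1.02). The lactate exporter Slc16a3, or MCT4, had a derived mean of 482 in control and 338 with high-dose FGF9, a ratio of 0.701 (0.505 to 0.975, unadjusted p = 0.0349, adjusted p = 0.354). Slc16a1, or MCT1, had ratios between 0.945 and 1.02 in the 3 comparisons.

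The regulators of flux comprised Pdk1, a kinase that keeps pyruvate out of the mitochondria by inhibiting pyruvate dehydrogenase, and the bifunctional enzymes Pfkfb3 and Pfkfb4, which set the level of fructose 2,6-bisphosphate. Pdk1 had a derived mean of 9656 normalized counts in control and 8722 with high-dose FGF9, a ratio of 0.903 (0.825 to 0.988, unadjusted p = 0.027, adjusted p = 0.309). Pfkfb3 had a ratio of 0.732 (0.543 to 0.986, unadjusted p = 0.040, adjusted p = 0.375). Both genes stood near the control level at the 1 ng/mL doses, with ratios from 0.961 to 1.03. Pfkfb4 showed another order of groups. Its derived mean was 206 in control, 174 with FGF2, 159 with high-dose FGF9 and 123 with low-dose FGF9, and its ratio at low-dose FGF9 was 0.596 (0.443 to 0.802, unadjusted p = 0.000628, adjusted p = 0.232).

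Of the hypoxia-inducible factors, Hif1a was the single member with an unadjusted p under 0.05 and a ratio above 1 at high-dose FGF9. It was at 3350 normalized counts in control and 3814 with high-dose FGF9 (ratio 1.14, 1.00 to 1.29, unadjusted p = 0.0418, adjusted p = 0.382), and at 3507 and 3546 with low-dose FGF9 and FGF2. Epas1, which encodes HIF-2α, had ratios of 1.03, 1.12 and 1.03 in these 3 comparisons, with an unadjusted p of 0.0436 and an adjusted p of 1.0 for low-dose FGF9. HIF activity is set largely by protein stability, which these RNA values do not measure. Together with Eno2, these genes were the 3 members with ratios above 1 in every comparison with control.

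The prolyl hydroxylases Egln1 and Egln3, which sense oxygen and mark HIF-α for degradation, had ratios of 0.975 (0.880 to 1.08) and 0.894 (0.800 to 0.998) with high-dose FGF9, with adjusted p of 0.946 and 0.402. P4ha1 and P4ha2 encode catalytic subunits of collagen prolyl 4-hydroxylase. P4ha1 had a derived mean of 1909 in control and 1567 with high-dose FGF9, and its ratio of 0.821 (0.719 to 0.938) had an adjusted p of 0.0968. P4ha2 was at 344 in control, 302 with high-dose FGF9, 227 with FGF2 and 186 with low-dose FGF9. The ratios of P4ha2 were thus lowest at the 1 ng/mL doses, at 0.542 (0.387 to 0.759, unadjusted p = 0.00036, adjusted p = 0.188) for FGF9 and 0.660 (0.472 to 0.922, adjusted p = 0.651) for FGF2, and neither was called.

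Bnip3 and Bnip3l encode mitophagy receptors at the outer mitochondrial membrane. Bnip3 had a ratio of 0.827 with high-dose FGF9 (0.686 to 0.997, unadjusted p = 0.0465, adjusted p = 0.405), while Bnip3l had one of 0.962 (0.896 to 1.03), and the control levels were 2518 normalized counts per kilobase of exon for Bnip3l and 457 for Bnip3. Kdm3a, a histone demethylase, Higd1a, a mitochondrial hypoxia-induced gene, and Ndrg1, a stress-induced gene, had ratios of 1.01, 1.03 and 0.966 with high-dose FGF9. Ero1l, which oxidizes protein disulfide isomerase in the endoplasmic reticulum, had a ratio of 0.918 (0.797 to 1.06).

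**Figure D3:**
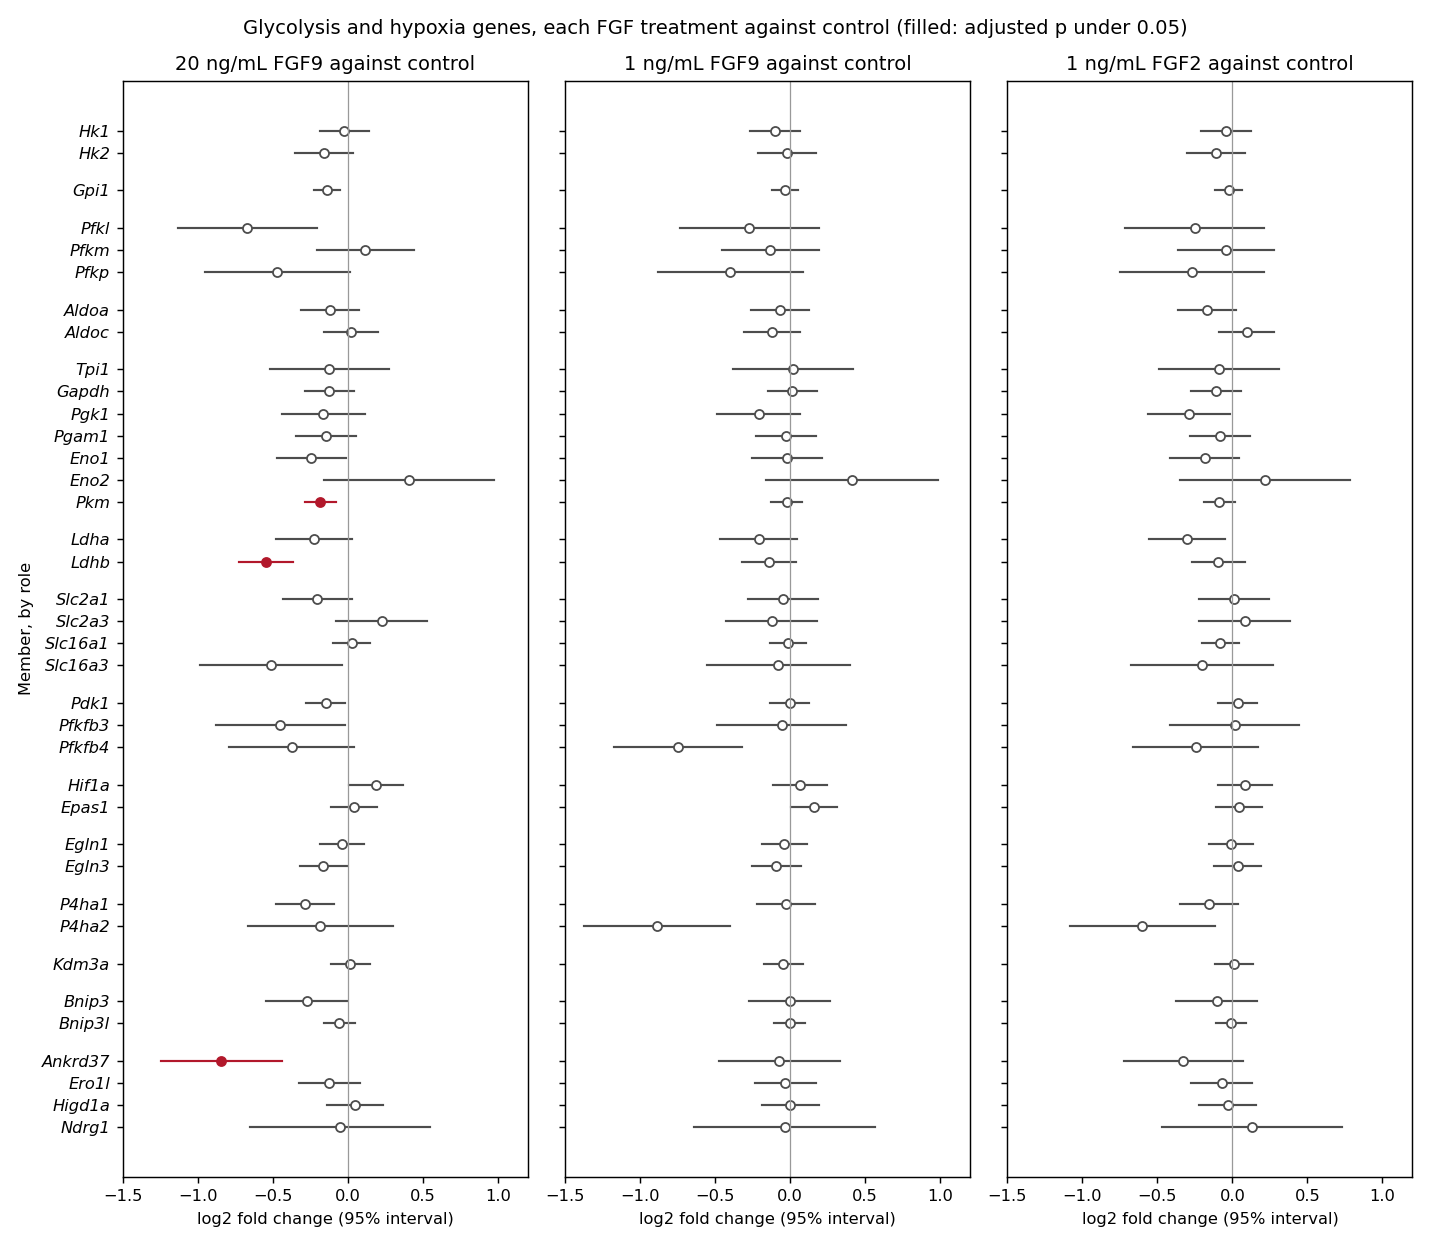
Log2 fold change of each of the 37 tested members against control with its 95% interval, in 1 panel per FGF treatment, ordered by role. Filled red points have an adjusted p under 0.05: Ldhb (-0.55), Ankrd37 (-0.84) and Pkm (-0.18) with high-dose FGF9, and no member in the other panels.

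Across the 37 members, 28 had ratios below 1 with high-dose FGF9 (75.7%), against 50.2% of all genes tested. At an unadjusted p under 0.05, 12 members were lower and 1 was higher, where 5.23% of all genes were lower and 6.74% higher. The members had a lower median standard error, 0.102 on the log2 scale against 0.159 over all genes tested. A change of a given size thus passes that threshold more easily in them, and the part of this in the counts was not tested. The median log2 fold change was -0.15 for the glycolysis members and -0.06 for the hypoxia members, with a median of -0.00083 over all genes tested. The derived mean was lowest with high-dose FGF9 for 21 of 37 members (56.8%), against 29.0% of all genes. It was highest in control for 21 (56.8%), against 23.4% of all genes. Because the genes of a pathway are not independent of each other, these counts describe the members and carry no test. The members and the further gene lists below were also chosen with earlier results of these data known. The shares of all genes are therefore not an independent comparison for them.

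Summed over the glycolysis members, derived means came to 98439 normalized counts in control and 89394 with high-dose FGF9, a ratio of 0.908. Pkm made up 33.5% of that difference, Gpi1 13.7% and Ldhb 2.77%. Their shares of the control sum were 25.7%, 13.8% and 0.809%. The ratio of the sums was 0.918 without Pkm, 0.908 without Gpi1 and 0.910 without Ldhb. The hypoxia members summed to 33862 and 32925, a ratio of 0.972.

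**Figure D4:**
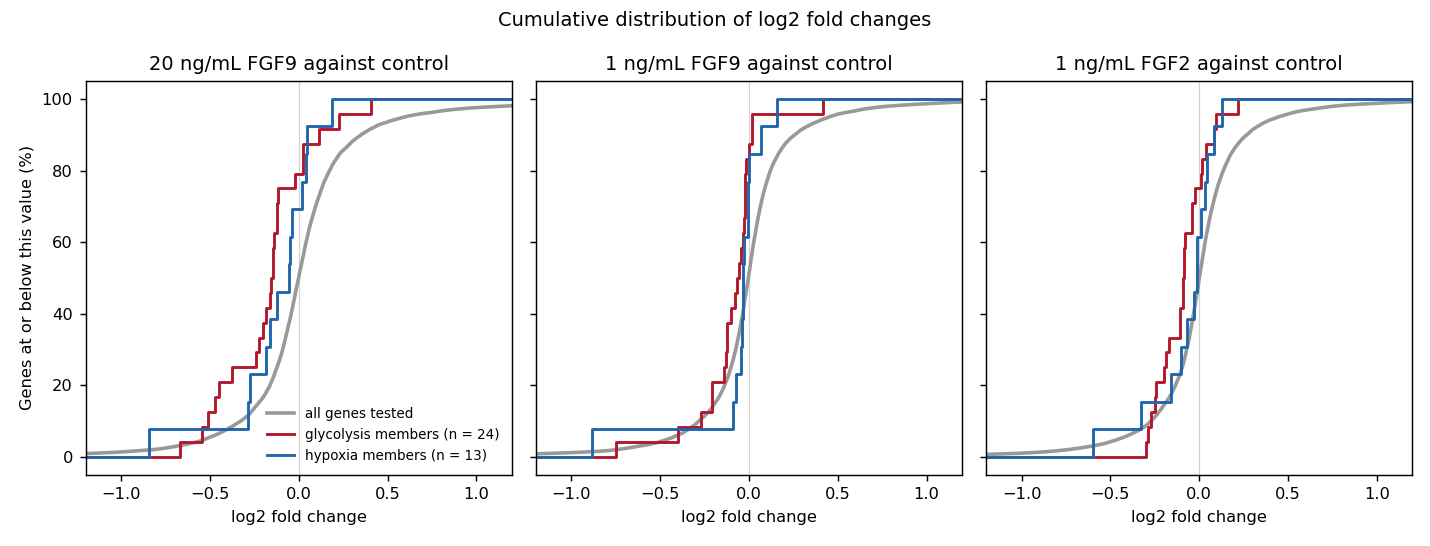
Cumulative distribution of log2 fold changes against control for the 24 glycolysis members, the 13 hypoxia members and all 17755 genes tested, in 1 panel per treatment. With high-dose FGF9 the curve of the glycolysis members lies to the left of that of all genes over most of its range, with medians of -0.15 and -0.00083.

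At the 1 ng/mL doses the members showed no called difference from control. With low-dose FGF9, 0 of 37 were called, as against 14 genes or 0.0789% of all tested. At an unadjusted p under 0.05 Pfkfb4 and P4ha2 were lower (5.41% of members) and Epas1 was higher. Of all genes, 2.35% were lower and 1.95% higher by that rule. With FGF2, 0 of 37 were called, as against 26 genes or 0.146%, and 3 members, Pgk1, Ldha and P4ha2, were lower at an unadjusted p under 0.05 and none higher, as against 2.17% and 3.04% of all genes. Ratios were below 1 for 31 and 26 of the 37 members, where 51.2% and 49.9% of all genes were, and the median log2 fold changes were -0.04 and -0.08. All 3 comparisons use the same control libraries, so that a common direction in them is not independent. The 95% interval lay within 0.8 to 1.25 for 14 members at the high dose of FGF9, for 23 at its low dose and for 19 with FGF2. It lay wholly below 0.8 for Ldhb and Ankrd37 at the high dose and for P4ha2, which was not called, at the low dose. For the remaining members a difference of that size was not bounded.

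Comparing the FGF groups with each other asks whether dose and ligand mattered, and here the test is of the difference of 2 log2 fold changes with a standard error rebuilt from the derived means. With the high against the low dose of FGF9, 2 of 37 members were called, both lower at the higher dose, against 2.57% of the 17726 genes compared (0.846% lower). Ldhb had a ratio of 0.755 (0.665 to 0.857, adjusted p = 0.00183) and Ankrd37 one of 0.586 (0.442 to 0.777, adjusted p = 0.0141). Pkm did not pass at 0.894 (0.832 to 0.961, adjusted p = 0.0755), so that its fall against control was not shown to differ from the lower dose. P4ha2 had a ratio of 1.63 in the opposite direction (1.16 to 2.28, adjusted p = 0.120).

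With high-dose FGF9 against FGF2, Ldhb was the 1 member called, with a ratio of 0.731 (0.644 to 0.830, adjusted p = 0.000428), against 1.17% of all genes (0.361% lower). These groups differ in both ligand and dose, which cannot be told apart in this contrast. Ankrd37 had a ratio of 0.701 there (0.527 to 0.931, adjusted p = 0.350). At the matched dose of 1 ng/mL, no member was called between FGF9 and FGF2, against 0.406% of all genes, and 2 members, Aldoc (ratio 0.861, 0.759 to 0.978) and Pfkfb4 (0.706, 0.525 to 0.949), had an unadjusted p under 0.05, as did 7.07% of all genes. For Ldhb the ratio of the 2 ligands at that dose was not called, and the same held for Pkm and Ankrd37.

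Further genes of these pathways were read against the same 2.75% of all genes called with high-dose FGF9. Of 34 further genes of glycolysis and pyruvate use, 25 were tested and none was called in any comparison with control. With high-dose FGF9, 1 of them, Bsg, the chaperone of the monocarboxylate transporters, had an unadjusted p under 0.05 (ratio 0.918, adjusted p = 0.245). Of 42 further hypoxia response genes, 41 were tested and 1 was called with high-dose FGF9, a share of 2.44% that is near that of all genes. It was Adm, the gene of the vasodilator peptide adrenomedullin and a HIF-1 target, whose derived mean was 324 normalized counts in control, 270 with low-dose FGF9, 262 with FGF2 and 158 with high-dose FGF9. Its ratio was 0.488 with high-dose FGF9 against control (0.366 to 0.650, adjusted p = 0.000161) and 0.585 against low-dose FGF9 (0.438 to 0.782, adjusted p = 0.0185). The groups stood in the same order as for Ankrd37, an order also seen for other members, among them Pkm, P4ha1 and Bnip3. Over the 41 genes 8 were lower and 4 higher at an unadjusted p under 0.05, where 5.23% of all genes were lower and 6.74% higher. Ratios were below 1 for 20 of them, with a median log2 fold change of 0.01.

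Of 24 fibroblast markers, 21 were tested. With high-dose FGF9, 7 of them were called higher and none lower, where 1.76% of all genes were higher and 0.986% lower. Cav1 stood at 16.1 normalized counts in control and 364 with high-dose FGF9, and Vim at 645 and 2168. The log2 fold changes of the 21 with high-dose FGF9 ran from -0.47 to 4.50, and the highest was that of Cav1. The summed level of the 24 markers was 22653 in control, 23593 with FGF2, 24272 with low-dose FGF9 and 30046 with high-dose FGF9, and Lum, Tagln and Acta2 were under 10 in mean. Over the 21 tested markers the median log2 fold change with high-dose FGF9 was 1.36, against -0.00083 over all genes tested. Their ratios were above 1 for 19 and below 1 for 2. The list includes Thy1, whose protein was used to sort the germ cells and whose RNA the paper also used to mark feeder cells. The paper's log2 fold change of Thy1 with high-dose FGF9 rounds to the same value as this median. At the low dose of FGF9 1 marker, Cav1, was called higher and with FGF2 none was. Between the doses of FGF9 4 markers were called higher at the high dose and none lower, where 2.57% of all genes were called, and the lowest log2 difference of the 21 was -1.06, for Postn (adjusted p = 0.236). The 15 germ cell markers had means from 335 to 47959 normalized counts and summed to 130536 in control and 131199 with high-dose FGF9, with Id4 called higher and Tex101 called lower. Sertoli and Leydig markers summed to 799 and 84.3 normalized counts in control and to 782 and 84.7 with high-dose FGF9. The part of the fibroblast RNA in the values of Ldhb, Pkm and Ankrd37 was not tested, and in bulk RNA fewer cells of a type cannot be told apart from less RNA per cell. The median standard error of the members was 0.102 on the log2 scale, against 0.159 over all genes tested, and library depths are not held in the table.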

How the data were processed

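Stranded mRNA libraries were made and sequenced by the authors, and the reads were processed with STAR, Salmon and DESeq2 on GRCm38, with the strand setting, versions and formula not given in the sources used here. Each line of the deposited table has 1 mean normalized count (a signal) and, for the 3 comparisons with control, the authors' log2 fold change with its standard error, Wald statistic (a score), p-value and adjusted p-value. These are the authors' own comparisons. They were used because the table holds nothing else from which the members could be described, and 0 columns hold values per library. Here the deposited p-values were adjusted (Benjamini-Hochberg) over 17755 genes whose mean reached 10. Derived group means assumed equal group sizes. Direct contrasts used a dispersion implied by the standard errors with 3 libraries per group, over 17726 genes with 1 or more in each derived mean. A simulation of these steps took unpaired libraries, 3 per group, and wrote its standard errors by the same formula. It could therefore check the arithmetic only, and not the number of libraries, their pairing or the dispersions. The members and lists were chosen with earlier results of these data known. Named were members called, with an unadjusted p under 0.05 against control, or among the 2 most abundant of their role. Called genes of the further glycolysis and hypoxia lists and the promoters of called members were also given. Outside these rules, Tpi1, Pgam1, Eno2, Slc2a1 and Ndrg1 were named to account for every member. Bsg, Eno1b, Postn, Lum, Tagln, Acta2 and the genes overlapping members were named after their values were seen. The same holds for Cav1, Vim, Thy1, Id4 and Tex101, and the other called fibroblast markers were not named. Coordinates and exon lengths are from GENCODE M21, promoters from RefSeq (GRCm38.p6). Analyses used Python 3.11.15, numpy 2.4.6, pandas 2.3.3, scipy 1.17.1 and matplotlib 3.10.9. Alternatives were other filters, the deposited adjusted p-values, centring, a null estimated from the quartiles of the Wald statistics, and 4 libraries per group.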

Additional observations from a re-analysis of the deposited data

Results flagged for a closer look

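Members whose response differed between FGF treatments in the direct contrast are listed here. The log2 difference of Ldhb between the high and the low dose of FGF9 was -0.41. Between high-dose FGF9 and FGF2, which differ in both ligand and dose, it was -0.45. The log2 difference of Ankrd37 between the high and the low dose of FGF9 was -0.77. Each was called by the test of the difference itself (two-sided normal test on the reconstructed contrast, Benjamini-Hochberg adjusted p = 0.00183, 0.000428 and 0.0141). The exons of Ankrd37 overlap those of Lrp2bp on the opposite strand.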

How the results depend on the processing

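Of the called members, Ldhb and Ankrd37 kept their calls under every alternative run, with adjusted p from 1.02e-06 to 5.97e-05 and from 0.00339 to 0.0262 against control over 5 alternatives, and up to 0.00238 and 0.0182 in the contrast of the FGF9 doses over 4, and Ldhb up to 0.000554 between high-dose FGF9 and FGF2. Pkm was lost with a null estimated from the quartiles of the Wald statistics (adjusted p = 0.0954, range over alternatives 0.0204 to 0.0954), which left 2 of 37 members called with high-dose FGF9. The same null called 2 members with low-dose FGF9, P4ha2 and Pfkfb4, where none had been called. Over all genes it gave 273 calls in place of 488, 75 in place of 14 and 99 in place of 26 for high-dose FGF9, low-dose FGF9 and FGF2, and the counts for the latter pair were 34 and 37 with no filter and 35 and 43 with the deposited adjusted p-values. Centring turned the sign of 3 uncalled log2 values near 0: Pdk1 (0.0018) and Bnip3 (0.00093) with low-dose FGF9 against control, and Egln1 (-0.0011) between the FGF9 doses. No paired analysis was possible because the table holds no values per library, and for the same reason no replicate could be left out, so that the weight of any 1 library in these results is not known. Both other filters, the deposited adjusted p-values and 4 libraries per group left every tested member on its side of the threshold.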
